A study of Caenorhabditis elegans with 2 samples.

Results

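The left end of chromosome IV of Caenorhabditis elegans held 649 of the 30000 regions in the list that the authors made from both replicates' reads together. A region was counted there when its summit, the position the authors marked within it, lay in the first 2 Mb of the chromosome on the ce11 assembly. Chromosome IV held 4458 regions in all, so 3809 lay on the rest of it. The lists of the single replicates held 638 regions of 30000 (replicate 1) and 653 of 30000 (replicate 2) in the same stretch.

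The assay was chromatin immunoprecipitation followed by sequencing (ChIP-seq) in 1 group with 2 biological replicates. The animals were whole young adults of mixed sex from strain OP581, genotype unc-119(tm4063) III; wgIs581, harvested 54.5 h after synchronisation as starved L1 larvae. The strain stably expresses ZIM-3 fused to GFP-FLAG at its C terminus, and an anti-GFP antibody pulled the tagged protein down from sonicated chromatin. Both replicates came from this 1 transgenic strain. The sources used here do not give the promoter of the transgene, and each value averages over every tissue of the animal. No untagged or input sample was analysed here.

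ZIM-3 belongs to a family of C2H2 zinc-finger proteins with ZIM-1, ZIM-2 and HIM-8. In meiosis each member gathers on the pairing centre, a repeat-rich stretch near an end of its chromosomes. There it connects the chromosome to the nuclear envelope so that homologues can pair and synapse. ZIM-3 is known to serve chromosome IV and another autosome.

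A repeated 12-base word lay near the summits of the highest regions. It was found by taking the 12-mer present within 50 bp of the most left-end peaks that passed the irreproducible discovery rate (IDR) threshold, so its presence in those peaks is how it was chosen and supports nothing. The word TTGGTTGAGGCT was near 12 of 32 such peaks, and 1 other 12-mer tied with it. Exact copies are in capitals in 6 stretches of 120 bases, read 5′ to 3′ from the RefSeq WBcel235 genome, which has the coordinates of ce11. They are shown because the first 4 come from arrays with an IDR peak and the last 2 from arrays with no region.
tut-1 intron 2, chrIV:119975-120094, plus strand: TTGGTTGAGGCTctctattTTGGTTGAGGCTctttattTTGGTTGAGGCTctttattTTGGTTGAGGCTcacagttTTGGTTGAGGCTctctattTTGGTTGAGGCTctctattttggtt
csn-3 intron 2, chrIV:196052-196171, minus strand: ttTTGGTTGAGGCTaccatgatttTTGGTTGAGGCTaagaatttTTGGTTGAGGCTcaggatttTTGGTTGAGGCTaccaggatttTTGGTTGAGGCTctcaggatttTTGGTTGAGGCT
gtf-2H1 intron 2, chrIV:230709-230828, minus strand: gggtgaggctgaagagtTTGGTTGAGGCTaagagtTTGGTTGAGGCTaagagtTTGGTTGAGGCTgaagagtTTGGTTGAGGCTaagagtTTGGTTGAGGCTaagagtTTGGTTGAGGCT
ints-13 intron 2, chrIV:236335-236454, plus strand: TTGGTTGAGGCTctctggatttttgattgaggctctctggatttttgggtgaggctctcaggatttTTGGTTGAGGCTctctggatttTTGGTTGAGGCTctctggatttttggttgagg
tcl-2 intron 3, chrIV:180625-180744, minus strand: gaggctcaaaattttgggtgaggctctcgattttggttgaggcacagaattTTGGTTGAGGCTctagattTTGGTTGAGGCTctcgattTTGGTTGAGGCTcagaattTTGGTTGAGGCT
fnta-1 intron 2, chrIV:239257-239376, minus strand: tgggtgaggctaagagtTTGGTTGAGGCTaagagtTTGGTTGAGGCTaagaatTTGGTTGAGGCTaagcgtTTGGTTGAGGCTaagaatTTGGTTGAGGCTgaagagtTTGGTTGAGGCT

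The copies followed each other at short, nearly constant steps in most of these stretches. In the ints-13 intron 2 stretch only 3 copies are exact, and lower-case words that differ from the 12-mer lie between them. The csn-3 stretch covers the second of the 3 summits in that intron. The gtf-2H1 and ints-13 stretches lie mostly outside the IDR peaks of those introns, which span 230823 to 231030 and 236250 to 236361. The fnta-1 stretch held 6 exact copies, as many as the tut-1 stretch, yet no region of the list lay there.

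A second kind of sequence under the peaks was transfer RNA (tRNA) genes, which RNA polymerase III transcribes from promoter elements inside the gene. The 3 genes shown lay within 500 bp of an IDR peak, and the capitals mark the word GTTCGANNC, the core of the B box, an internal promoter element.
F29C4.t1, tRNA-Arg, in an intron of col-99, chrIV:143982-144054, plus strand: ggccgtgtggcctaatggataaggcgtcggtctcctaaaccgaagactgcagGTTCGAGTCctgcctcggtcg
C05G6.t1, tRNA-Val, in an intron of C18H7.1, chrIV:620482-620554, plus strand: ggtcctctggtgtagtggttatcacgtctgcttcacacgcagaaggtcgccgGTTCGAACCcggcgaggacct
K11H12.t1, tRNA-Sec, in an intron of K11H12.8, chrIV:658181-658266, plus strand: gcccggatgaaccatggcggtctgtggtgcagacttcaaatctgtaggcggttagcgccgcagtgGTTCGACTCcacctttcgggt

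Searched on both strands, GTTCGANNC was in 4 of the 6 left-end IDR peaks near a tRNA gene. It was in 5 of all 32 left-end IDR peaks (15.6%), and 24 of 115 on the rest of chromosome IV held it (20.9%). Over all regions the shares were 4.31% at the left end and 4.02% on the rest of the chromosome. A match describes the letters in the region and nothing more.

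The height of a region is the signal value deposited by the authors, and its scale differs between lists. The pooled list was ranked by it, and the 906 highest regions are the authors' IDR peaks. The left end held 32 IDR peaks among its 649 regions, or 4.93% (exact Clopper-Pearson 95% interval 3.40 to 6.89%, counting error only). The background over all 30000 regions was 3.02%, and it was also 3.02% over the 3809 regions of the rest of chromosome IV (115 peaks, interval 2.50 to 3.61%). The intervals overlapped, and neighbouring regions are not independent.

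The excess lay in the first Mb. That Mb held 352 regions and 27 IDR peaks (7.67%), and the second Mb held 297 regions and 5 IDR peaks (1.68%). The first 250 kb alone held 16 IDR peaks among 89 regions, and the first 500 kb held 20. No other window of 250 kb on the chromosome held more than 8 IDR peaks, and the median of the 62 windows outside the left end was 2. By number of regions the first window was not extreme: it came 11th of the chromosome's windows, and the window after it came first with 115 regions and 4 IDR peaks.

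**Figure D1:**
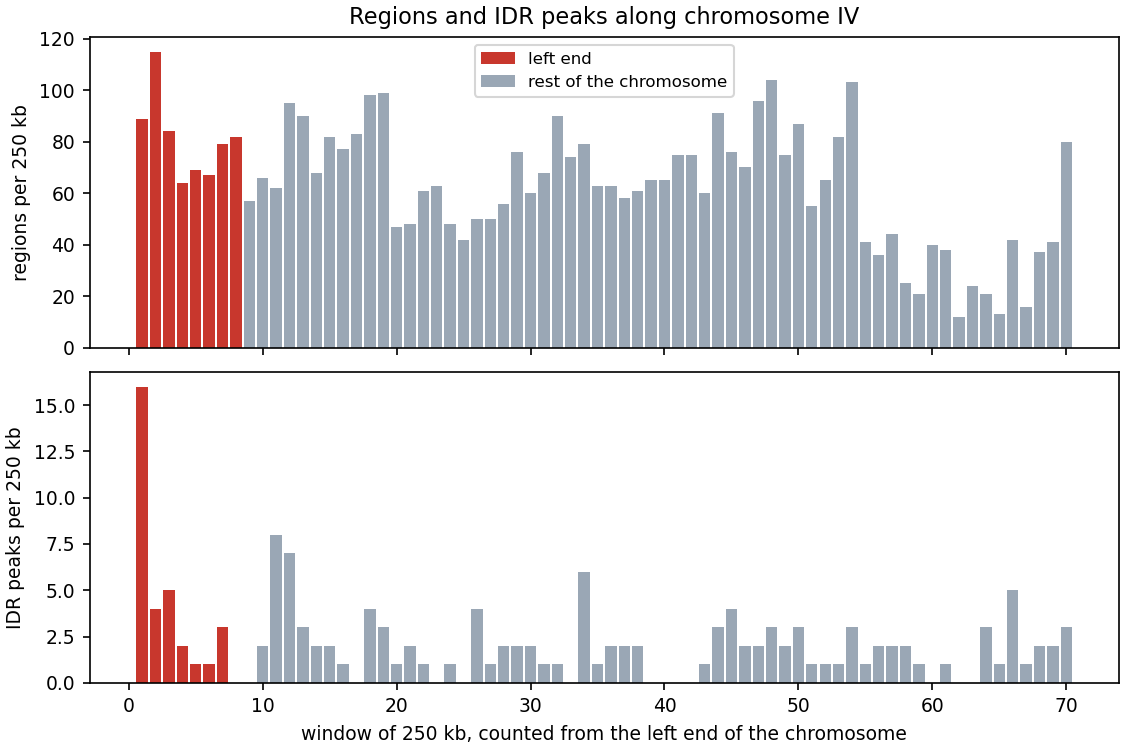
Regions (upper bars) and IDR peaks (lower bars) in windows of 250 kb, numbered from the left end of chromosome IV, with the left end in red and the rest in grey. The first window holds 16 IDR peaks and no window in grey holds more than 8, while region counts at the left end (64 to 115) overlap those elsewhere (12 to 104).

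Regions were denser at the left end, at 324.5 per Mb against 245.84 per Mb on the rest of the chromosome, a ratio of 1.32. The ratio fell below 1, to 0.848, once summits up to 10 kb apart were merged. Merging ran from each summit to the next, so a whole run of close summits counted as 1. A denser stretch can leave fewer runs this way, so nothing about density is read from the 0.848. IDR peaks numbered 16 per Mb at the left end and 7.42 per Mb elsewhere. The opposite end of the chromosome, its last 2 Mb, held 274 regions and 17 IDR peaks (6.20%), and its highest signal was 347.2. Neighbouring summits at the left end were a median 1743.5 bp apart, close to the 1726 bp of the rest. IDR peaks were a median 17657 bp apart at the left end and 69894.5 bp apart elsewhere. Of 31 gaps between neighbouring left-end IDR peaks, 14 were at most 10 kb, against 21 of 114 on the rest of the chromosome.

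The typical left-end region was no higher than elsewhere: the median signal was 68.3 at the left end and 67.9 on the rest of chromosome IV. The upper tail was longer. The 95th percentiles were 139.0 and 125.4, the 99th percentiles 354.2 and 190.5, and the highest values 818.0 and 429.0. Signal exceeded 300 in 10 left-end regions and in 7 on the rest of the chromosome, which is far longer. It exceeded 400 in 5 left-end regions and in 1 elsewhere. Of the 25 highest regions in the genome, 4 were at the left end and 1 on the rest of chromosome IV. Among IDR peaks the median signal was 249.7 at the left end and 172.1 on the rest, a ratio of 1.45.

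**Figure D2:**
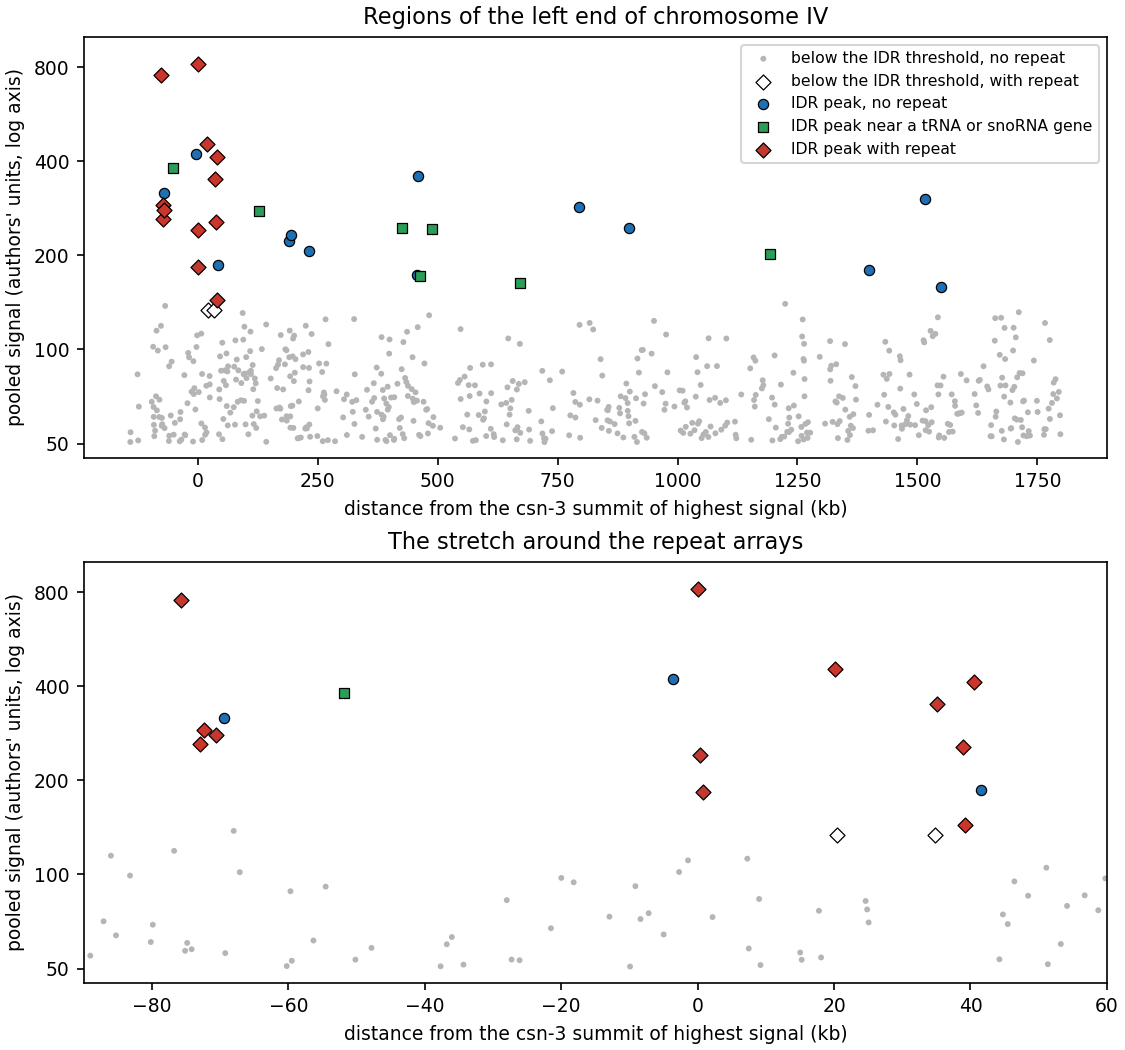
Pooled signal (authors' units, log axis) of the 649 left-end regions against the distance in kb of their summit from the highest csn-3 summit, with the whole left end above and the stretch around the repeat arrays below. Diamonds hold the 12-base repeat, squares are IDR peaks near tRNA or snoRNA genes, and the highest points (818.0 and 752.2) are diamonds within the first 250 kb of the chromosome.

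The replicates were matched by summits within 200 bp. All 32 left-end IDR peaks had a match in both replicate lists, as did 112 of 115 on the rest of the chromosome. Over all left-end regions 538 matched replicate 1 and 421 matched replicate 2, and 339 matched both (52.2%, against 48.2% on the rest). In 29 regions neither replicate had a summit that near. Some regions shared a replicate summit: the 538 matches rested on 532 summits and the 421 on 411. Signal was higher in replicate 1 than in replicate 2 at every left-end IDR peak, by 1.82 to 7.86 times (median 3.01), and the median was 2.71 times on the rest of the chromosome. The files hold no read counts, so the depth of the libraries is unknown and this ratio cannot be related to it. Across the left-end IDR peaks the Spearman correlation between replicates was 0.75 (n = 32 peaks from the same 2 libraries), and it was 0.22 over 112 IDR peaks elsewhere. Over all regions matched in both lists it was 0.47 at the left end (n = 339) and 0.33 on the rest (n = 1836). Pooled signal of IDR peaks ran from 144.1 to 818.0 at the left end and from 141.0 to 429.0 elsewhere. The part of this wider range in the difference was not tested.

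**Figure D3:**
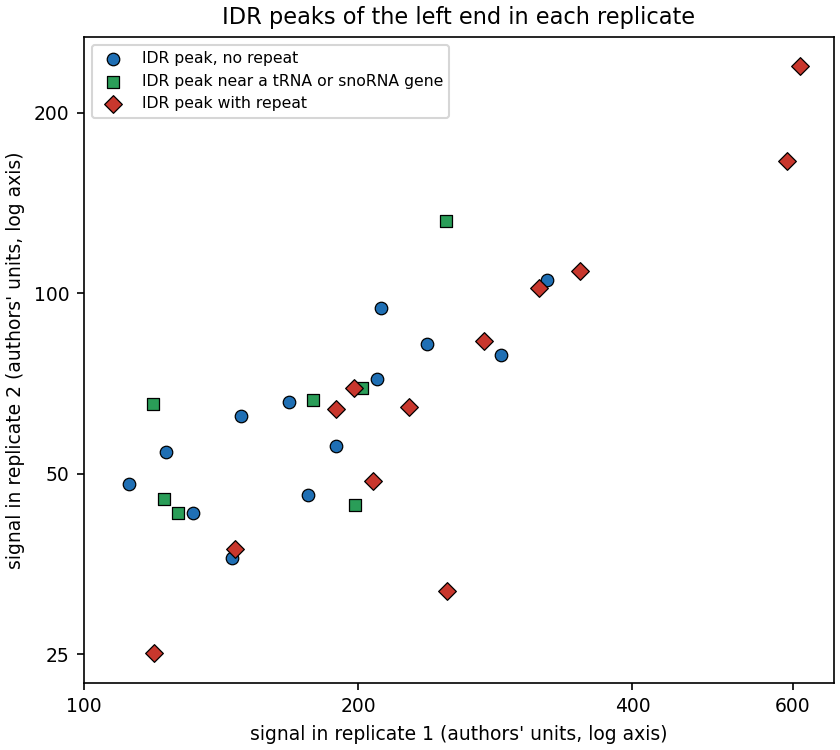
Signal of the 32 left-end IDR peaks in replicate 1 and replicate 2 (authors' units, log axes), with diamonds for peaks that hold the repeat and squares for peaks near tRNA or snoRNA genes. The csn-3 and tut-1 diamonds stand at the top in both replicates, and 2 diamonds lie lowest in replicate 2 at 25.1 and 31.9.

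Chromosome IV held 190 exact copies, and 188 of them lay within 119.5 kb, between positions 119860 and 239396. The other copies, at 1366218 and 8035565, had no region. All 188 clustered copies lay in 13 introns of 9 protein-coding genes. Grouping copies up to 1 kb apart, with 4 or more per group, made 9 arrays with 184 copies. In each array every copy lay on the same strand, opposite to the host gene's strand in 7 arrays and on it in 2 (gtf-2H1 and fnta-1). Of 175 gaps between neighbouring copy starts, 120 were 18 to 23 bp (68.6%) and 32 were 36 to 46 bp. The commonest step was 18 bp in gtf-2H1 and fnta-1, 19 bp in tut-1, grld-1 and tcl-2, 20 bp in Y38C1AA.1 and ints-13 intron 5, and 22 bp in csn-3 and ints-13 intron 2.

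Words with 1 mismatch brought the number in the first Mb to 274. Counting positions from 1 at the 5′ end of the repeat, the commonest change was T5G, in 31 words of the left end of which 22 lay inside arrays. G4A occurred 17 times and G10A 10 times there. The 12 regions of the chromosome that held a 1-mismatch word but no exact copy had signals of 55.4 to 88.1, and none was an IDR peak. Over all regions of the pooled list 3.02% were IDR peaks, so none of 12 is near that share. The exact word was chosen from IDR peaks, so nothing is read from the contrast with regions that hold it.

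Exact copies lay in 14 left-end regions and in no region on the rest of the chromosome. These 14 ran from 134.1 to 818.0 in signal (median 270.0), and 12 were IDR peaks. Among the 635 left-end regions without a copy, 20 were IDR peaks, or 3.15%. Because the word was picked from the IDR peaks, setting aside its 14 regions lowers that share by construction, and nothing is read from it. Between the first and the last clustered copy lay 61 regions, of which 47 held no copy and 4 of those were IDR peaks. Those 47 had a median signal of 70.2.

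csn-3, the gene of a COP9 signalosome component, held the highest region of the genome. Its second intron of 1873 bp carried 33 copies and 3 IDR peaks. The summit at 195784 had a pooled signal of 818.0, with 611.1 in replicate 1 and 239.0 in replicate 2, and it ranked first in all 3 lists. The others, at 196084 and 196514, reached 240.4 (189.3 and 64.1) and 184.1 (146.4 and 37.5). The first thus stood well above its neighbours in both replicates. Its region overlapped that of the summit at 196084 and shared copies with it.

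tut-1, which acts in tRNA thiolation, held the second highest region. Its second intron of 718 bp carried 12 copies, and the summit at 119979 had a signal of 752.2, with 591.4 in replicate 1 (rank 2) and 165.8 in replicate 2 (rank 6). The next gene, grld-1, which encodes an RNA-binding protein, carried 42 copies over introns 4, 3 and 2. Its 3 IDR peaks had similar pooled signals of 261.0, 289.4 and 278.9. They were less alike in replicate 2, at 69.5, 64.6 and 31.9, and the peak in intron 2 ranked 50th in replicate 1 and 3359th in replicate 2.

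Y38C1AA.1 carried 23 copies in intron 5. Its IDR peak at 215935 had a signal of 452.6 (350.7 in replicate 1, 109.0 in replicate 2) and held 4 copies in a region of 191 bp. The region beside it, at 216183, held 14 copies but reached only 134.1 and was no IDR peak. Both matched the same summit of replicate 2, so the 109.0 cannot be given to either alone.

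gtf-2H1, which encodes a subunit of the transcription factor TFIIH, carried 46 copies, the most of any array, in its second intron. Its IDR peak at 230914 had a signal of 349.8 (275.1 and 83.2) and 4 copies, and a region at 230579 with 16 copies reached 134.2 (111.6 and 33.0). In both of these introns the region with more copies was the lower. It was also the wider, at 376 bp against 191 bp in Y38C1AA.1 and 208 bp in gtf-2H1. The Y38C1AA.1 regions overlapped and shared copies.

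ints-13, which encodes a subunit of the Integrator complex, carried 2 arrays. In intron 2 the summit at 236338 reached 413.5 (315.7 and 102.0) in a region with 1 exact copy and 4 words of at most 1 mismatch. In intron 5 summits 201 bp apart reached 255.2 (207.8 and 48.5) and 144.1 (119.3 and 25.1). Their regions overlapped and shared copies, and the lower ranked 8412th in replicate 2. The arrays in tcl-2 (5 copies) and fnta-1, which encodes the alpha subunit of protein farnesyltransferase (8 copies), had no region, so 7 of the 9 arrays had an IDR peak.

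**Figure D4:**
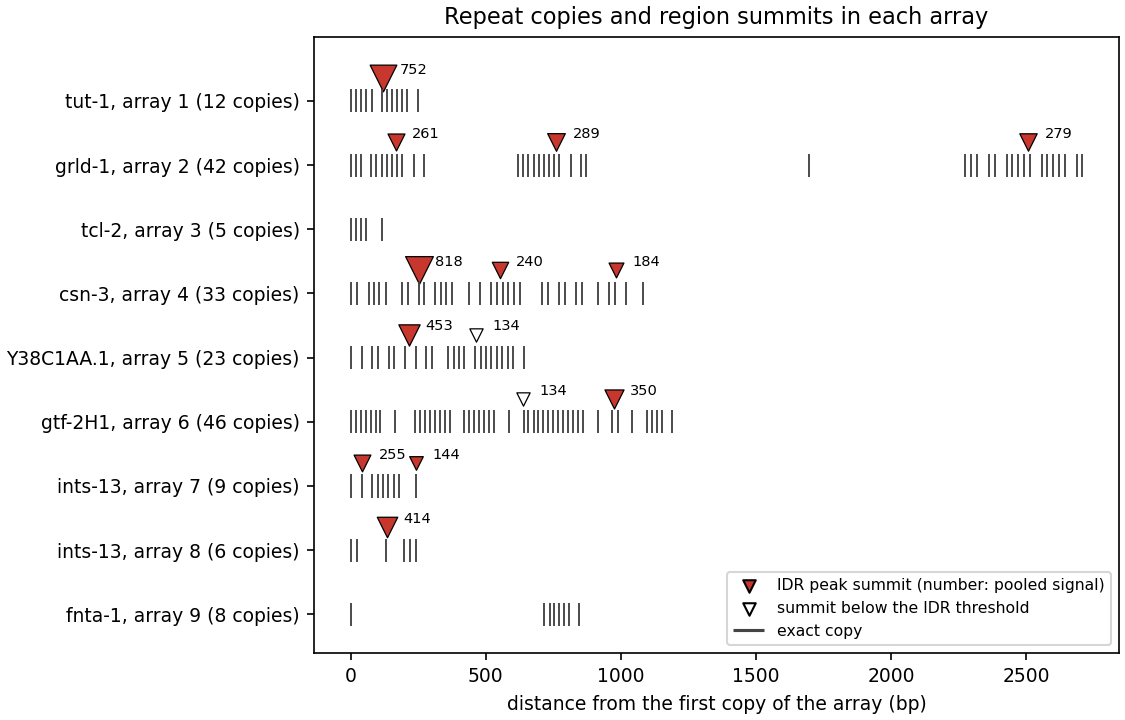
Exact copies of the repeat (ticks) and summits of regions (triangles, with their pooled signal) in each of the 9 arrays, against the distance in bp from the first copy. Red triangles are IDR peaks and white ones are regions below the IDR threshold, and the tcl-2 and fnta-1 arrays have no triangle.

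Across the 12 IDR peaks with the repeat, in 8 introns, signal and the number of copies in the region had a Spearman correlation of 0.12. Copies were counted within region bounds, and these regions were 112 to 514 bp wide, so a narrow region can hold few copies. Overlapping regions in csn-3 and in ints-13 shared copies, so some copies were counted more than once. The part of width in this value was not tested. The sources used here do not say how reads that fit several places were assigned. The share of 36-base windows that occur once in the genome was 23.2 to 89.6% in these 12 peaks (median 69.9%), and a median 100% in the 20 left-end IDR peaks without the repeat. It was 22.9% and 6.45% in the Y38C1AA.1 and gtf-2H1 regions below the threshold. Over the arrays with no region it was 98.9% (tcl-2) and 50.5% (fnta-1). The part of these shares in the signal was not tested.

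By position relative to genes, 11 of the 32 left-end IDR peaks lay in introns (34.4%), against 11 of 115 on the rest of chromosome IV (9.57%). A region within 500 bp of the start of any transcript of a protein-coding gene was called a promoter region first, and 17 left-end IDR peaks (53.1%) and 40.9% elsewhere fell in that class. Counting every peak within a protein-coding intron, promoter regions included, gave 18 of 32 at the left end and 33 of 115 elsewhere. The 3 ints-13 peaks with the repeat are among those first classed as promoter regions, and with no promoter class 16 of the 32 (50%) were intronic. By the first classes the remainder were 2 in exons and 2 between genes. Exons of every gene type counted and were taken before introns, so a summit in a small RNA gene inside an intron was called exonic. Both exonic summits lay in tRNA genes, C05G6.t1 and F41A4.t1. Of the 11 intronic peaks, 9 held the repeat, and the others were in col-99 and Y55F3BR.2. The genes with at least 2 intronic IDR peaks were csn-3 and grld-1, with 3 each. Over all left-end regions the intronic share was 25.6%, and on the rest of the chromosome 17.6%.

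Beside the arrays, 4 IDR peaks without the repeat lay among the copies. The summit at 192219, between pnc-1, which encodes a nicotinamidase, and Y38C1AA.12, reached 422.0 (322.3 in replicate 1, 105.1 in replicate 2), the highest of all 20 left-end IDR peaks without it. The summit at 126302, between grld-1 and cox-6C, a cytochrome c oxidase subunit gene, and inside the noncoding gene F29C4.9, reached 315.7 (237.9 and 82.2), and that at 237270, at the start of ints-13, reached 185.6 (145.4 and 36.1).

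The fourth lay at 143959 in an intron of col-99, a collagen gene, 23 bp from the tRNA-Arg gene F29C4.t1. It reached 380.8, with 249.5 in replicate 1 (rank 52) and 132.1 in replicate 2 (rank 12). Of 9 tRNA genes at the left end, 6 had an IDR peak within 500 bp, against 23 of 62 on the rest of chromosome IV (37.1%). The tRNA-Val gene C05G6.t1 had 244.3 (198.6 and 44.3), and the tRNA-Sec gene K11H12.t1, which carries selenocysteine, had 171.1 (122.4 and 45.3). The tRNA-Asp genes K02D7.t1 and F41A4.t1 had 277.9 (202.2 and 69.4) and 243.3 (178.4 and 66.4), and the tRNA-Glu gene Y104H12A.t1 in nhr-41 had 201.4 (119.1 and 65.3). These last 3 genes have further identical copies on the chromosome, so their reads may fit more than 1 place.

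The other tRNA genes had less. Y55F3BR.t1 (tRNA-Glu) had a region of 108.4, K03H6.t1 (tRNA-Asp) 79.4, and T05C7.t1 (tRNA-Met) none. Of 10 small nucleolar RNA (snoRNA) genes 1 had an IDR peak, against 12 of 49 on the rest of the chromosome (24.5%). It was Y55F3BR.9 in an intron of Y55F3BR.2, at 163.3 (127.0 and 42.9). Antisense and overlapping noncoding genes lie at several of these sites and cannot be told apart by position.

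Most other IDR peaks lay at starts of protein-coding genes. rpl-15, a large ribosomal subunit gene, had 358.2 (287.0 and 78.9) at 654927, and K11H12.1 beside it had 172.6 (131.9 and 43.0). The small-subunit gene rps-24 had 221.6 (176.1 and 46.1). The peak between ears-2, which encodes a glutamyl-tRNA synthetase, and uncp-18 had 232.6 (168.1 and 65.8), at the starts of both genes. Outside promoter regions, the peak 174 bp past the end of garr-1 had 205.7 (148.8 and 62.5), and the one 890 bp from egrh-2, the nearest gene, had 285.2 (209.6 and 71.8).

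The second Mb held the 5 remaining peaks, all in promoter regions, with nhr-41, which encodes a nuclear hormone receptor, among them. rpi-2 had the highest at 302.3 (211.7 and 94.6), and Y55F3AR.2 had 244.0 (189.2 and 55.6). npp-8, a nucleoporin gene, had 179.2 (123.1 and 54.4), and Y41D4A.4 had 158.4 (112.2 and 48.1). Of 316 protein-coding genes at the left end 29 had an IDR peak within 500 bp (9.18%), and of 2965 on the rest of the chromosome 120 did (4.05%). IDR peaks per Mb were also more numerous at the left end, 16 against 7.42, so the difference is not read as one about genes.

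Near the threshold, the lowest left-end IDR peak was the ints-13 summit at 144.1, and the highest region below it was near Y77E11A.7 at 139.9 (92.7 and 61.6). The next below was beside cox-6C at 137.8. At the edge of the 2 Mb the last summits inside, at 1993120 and 1993828, had signals of 61.6 and 53.5, and the first outside, at 2032743 and 2033229, had 71.1 and 63.8. None of these 4 edge regions was an IDR peak.

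Genes for the pairing-centre proteins and their partners lay elsewhere. Of a list of 18 that also holds chromosome-axis, synaptonemal-complex and checkpoint genes, 17 had a region within 1000 bp and none an IDR peak. The share of all genes with a region that near was not computed, so nothing is read from the 17. Within the narrower distance of 500 bp, 4.05% of the protein-coding genes on the rest of chromosome IV had an IDR peak. None of 18 is near that share. The highest signal was 127.9, at the synaptonemal-complex gene syp-4. zim-3 itself had 104.2, him-8 had 80.6 and zim-1 had 67.3. zim-2 had no region, nor did unc-119, the gene mutated in the strain.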

How the data were processed

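Per the labels, ChIP-seq was done on 2 biological replicates of 1 group. The authors deposited a signal value, a summit and an interval for each region, in lists of 30000 regions per replicate and for the pooled reads, and an IDR-thresholded list of 906 peaks. The sources used here do not give the aligner, the peak caller or the depth. Regions were placed on ce11 coordinates, annotated with Ensembl release 115, and matched between lists within 200 bp. A region was a promoter region within 500 bp of a protein-coding transcript's start, and otherwise exonic, intronic or intergenic. Exons of all gene types, small RNA genes included, counted as exonic and were taken before introns. Repeat copies were counted within region bounds. Python 3.11.15, pandas 2.3.3, scipy 1.17.1 and matplotlib 3.10.9 were used, and the functions were tested on simulated data. No test between conditions was possible with 1 group, so values are descriptions beside the rest of the chromosome.

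Members and lists were chosen with earlier results of these data known. The genes named were those at the 20 highest left-end regions, those with at least 2 intronic IDR peaks, hosts of arrays, small RNA genes within 500 bp of an IDR peak, and the ZIM family with unc-119. Alternatives changed the length of the end, the lists, the replicate, the matching distance and the repeat rules. Nearly all regions had a width of 376 bp, so a summit is mostly the centre of a fixed interval. The exceptions on chromosome IV were 6 left-end IDR peaks with signals of 349.8 to 818.0. Among them were the highest csn-3 peak (514 bp) and the tut-1 peak (268 bp).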

Additional observations from a re-analysis of the deposited data

How the results depend on the processing

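Of 67 values under alternative settings, 52 stayed within the spread allowed for the reported value, 14 moved and 1 changed direction. With the first 1 Mb as the end there were 352 regions, 1.41 times the density of the rest, 7.67% IDR peaks, a median signal 1.04 times that of the rest and a median spacing of 1519 bp. With the first 3 Mb the density ratio was 1.27 and the ratio of IDR peak signals 1.17. Joining summits within 10 kb left 36 runs of summits and a ratio of 0.848 in runs per Mb. Of these runs 27.8% held at least 1 IDR peak, which is not a share of single regions. Denser stretches can join into fewer runs, so the change of direction is not read as one in density. Without regions that hold the repeat the IDR share was 3.15%, a fall fixed by choosing the repeat from IDR peaks and so no measure of stability. Matching within 100 bp or 500 bp gave 40.7% or 61.2% of regions in both replicates. The cause of these shifts was not tested beyond what each setting changes.

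Leaving out a replicate gave 638 to 653 regions, density ratios of 1.28 to 1.33, signal ratios of 0.991 to 1.01 and median spacings of 1720.5 to 1809 bp. Keeping only the pooled IDR peaks ranked within the first 3000 of a single replicate list left 4.62 to 4.93% of regions. Signal ratios were then 1.43 to 1.45, intronic shares 33.3 to 34.4% and repeat shares 33.3 to 37.5%, with 7 arrays in either case. Signals stayed those of the pooled list, and the limit in replicate 1 changed none of these values, so they are no measure of stability. They count among the 52 that stayed. No paired analysis was possible because there was 1 group. Without read counts, no depth limit could be set.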

Other observations

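None of the 8 microRNA genes at the left end had an IDR peak within 500 bp, and 2 of 42 did on the rest of chromosome IV (4.76%). The highest region near a left-end microRNA gene was 106.9, at cel-mir-269. Of 84 genes annotated as ncRNA, 7 had an IDR peak (8.33%), against 4.11% on the rest of chromosome IV. Among the 7 were F29C4.12, K02D7.8, C18H7.16, F41A4.3 and Y55F3BR.17, at peaks already counted for tRNA or snoRNA genes. This share is thus not separate from those counts. The small nuclear RNA gene C05G6.4 had a region of 105.5, and the snoRNA genes K11H12.12 and K11H12.13 shared one of 117.8. None of the 22 pseudogenes had an IDR peak, and 4 of 359 did on the rest of the chromosome (1.11%). GC content of left-end IDR peaks had a median of 42.6%, and that of the IDR peaks on the rest of the chromosome 41.8%.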
